A study of Homo sapiens with 2 samples.

Results

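The genes examined here encode the 7SK RNA and the proteins through which it controls P-TEFb, the kinase that lets RNA polymerase II move from pausing into productive elongation. They were chosen by name: RN7SK, CDK9, CCNT1, CCNT2, HEXIM1, HEXIM2, LARP7 and MEPCE, 8 of the 57736 genes in the tables. RN7SK was taken as the gene on chromosome 6 that carries this symbol and none of its 291 annotated copies. Gene expression was measured by RNA-Seq of poly(A) RNA from HEK293T cells, a human embryonic kidney line that carries the SV40 large T antigen, labelled as wild type. Protein was not measured, so all levels given here are levels of RNA. The cells were grown in DMEM with 10% serum at 37°C and 5% CO2 until 80% confluent. The series holds a single group with 2 replicates, so levels were compared between genes and between the libraries, with no second condition to set them against. The labels do not say whether the replicates came from separate cultures, so any spread between them may be technical. Replicate 1 held 10593491 estimated counts over all genes, and replicate 2 held 10104118.

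P-TEFb consists of the kinase CDK9 and a T-type cyclin. It phosphorylates the C-terminal domain of RNA polymerase II and the factors NELF and DSIF, which hold the polymerase in a paused state near the promoter. A large part of P-TEFb is kept inactive in a ribonucleoprotein built on 7SK RNA, a short non-coding RNA made by RNA polymerase III. MEPCE puts a methyl cap on the 5′ end of 7SK RNA, LARP7 binds the U-rich 3′ end, and a dimer of HEXIM1 or HEXIM2 binds the 5′ hairpin and blocks the kinase. 7SK RNA has no poly(A) tail, so its level in libraries made from poly(A) RNA is a level in the selected RNA. How much of the cellular 7SK RNA passed the selection was not measured.

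RN7SK lies on chromosome 6 from 52860418 to 52860748 on the plus strand (GRCh37) and is annotated as a misc_RNA gene of 331 bases with a single exon. The first 110 bases hold the 5′ hairpin and are shown because HEXIM proteins recognise the motif GATC (GAUC in the RNA) in it. The motif was found on the strand of the gene at bases 13, 42 and 64, counted from 1 at the 5′ end, and is in capitals. The sequences are those of the GRCh37 reference genome, chr6:52860418-52860527 for the first and chr6:52860689-52860748 for the second, both on the plus strand. In the last 60 bases the capitals mark the run of 3 T at the end of the annotated gene, which is the part bound by LARP7.
RN7SK bases 1 to 110: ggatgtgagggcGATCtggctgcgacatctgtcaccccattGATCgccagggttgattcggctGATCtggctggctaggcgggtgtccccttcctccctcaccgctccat
RN7SK bases 272 to 331: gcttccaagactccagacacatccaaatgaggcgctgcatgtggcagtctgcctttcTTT

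The longest run of A in the gene has 3 bases, and the GC content is 58.0%. The human genome carries many partial copies of this RNA, and their sequence decides which reads can be placed at the gene itself. Words of 50 bases were used to describe this, since the reads are 50 bases long. Of the 282 such words in RN7SK, 66 (23.4%) were found at no other genomic match, and 216 were found exactly at another place. All 110 words that start in the first 110 bases occurred elsewhere, at 3 other places at most. The words found nowhere else start at bases 216 to 253 and 255 to 282, in the 3′ part of the RNA. Reads from the 5′ part of RN7SK can therefore fit a copy as well.

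7SK RNA was by far the most abundant of the 8 transcripts. RN7SK received 4365 estimated counts in replicate 1 and 5697 in replicate 2, which are 0.0412% and 0.0564% of all counts. Its level was 2069 TPM in replicate 1 and 2804 TPM in replicate 2, with a mean of 2437 ± 520 (SD, n = 2). TPM is a share of transcripts, corrected for length, that adds up to an equal total for every library. This level ranked 27 among all 57736 genes and first among the 2030 genes annotated as misc_RNA. The posterior SD of the count, a measure in the tables of how uncertain the sharing of ambiguous reads is, was 3.86 counts in replicate 1 and 3.13 in replicate 2. These values are 0.0884% and 0.0549% of the count, far below the counting error of 66.1 and 75.5 counts (the square root of the count). The tables also give a credibility interval around a posterior mean, and for RN7SK this was 1853 to 1966 TPM around 1910 in replicate 1 and 2517 to 2651 around 2581 in replicate 2. The TPM itself lay above the interval in both replicates, and the intervals of the replicates did not overlap.

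In TPM the transcripts of the kinase and its cyclins were at similar levels. Per kilobase of canonical transcript they lay further apart. CDK9 then had 227 counts in replicate 1 and 199 in replicate 2, and CCNT2 had 91.8 and 91.6. CDK9, the catalytic subunit (ENSG00000136807, chromosome 9 from 130547958 to 130553071, plus strand), was at 42.0 TPM in replicate 1 and 39.7 in replicate 2, a mean of 40.9 ± 1.59 (SD, n = 2). It received 563 and 495 estimated counts. CCNT1, which encodes cyclin T1, the partner that HIV-1 Tat also binds (ENSG00000129315, chromosome 12 from 49082241 to 49110781, minus strand), was at 33.7 and 33.8 TPM, a mean of 33.8 ± 0.113 (SD, n = 2). Its counts of 1063 and 1030 had a posterior SD of 0 in both replicates, so none of its reads was shared with another gene. CCNT2, the gene of cyclin T2 (ENSG00000082258, chromosome 2 from 135675805 to 135716912, plus strand), was at 29.8 and 26.4 TPM, a mean of 28.1 ± 2.43 (SD, n = 2). Its counts were nearly equal, at 635 and 634, while the transcript length that the tables assign to it from the isoforms differed, with 2903 bases in replicate 1 and 3394 in replicate 2.

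The inhibitors were the lowest of the 8 genes in TPM, with HEXIM1 above HEXIM2 in both libraries. HEXIM1 (ENSG00000186834, chromosome 17 from 43225842 to 43229466, plus strand) was at 22.4 TPM in replicate 1 and 22.9 in replicate 2, a mean of 22.6 ± 0.311 (SD, n = 2), from 792 and 777 estimated counts. Its paralog HEXIM2, the next gene along on the same strand (ENSG00000168517, chromosome 17 from 43238067 to 43247407), was at 6.29 and 4.24 TPM, a mean of 5.27 ± 1.45 (SD, n = 2). HEXIM2 rested on 49.0 and 34.2 estimated counts, and its credibility intervals of 5.25 to 9.53 TPM and 3.75 to 7.62 TPM overlapped. The posterior SD of its count was 2.31% of the count in replicate 1 and 6.02% in replicate 2, larger than in any other of the 8 genes. The TPM of HEXIM1 depends on the gene model in the tables, which is 4785 bases long against 3625 in the annotation used for coordinates.

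The transcripts of the proteins that stay on 7SK RNA were the highest among the protein-coding members. LARP7 (ENSG00000174720, chromosome 4 from 113558233 to 113578852, plus strand) was at 114 TPM in replicate 1 and 96.4 in replicate 2, a mean of 105 ± 12.3 (SD, n = 2). Its estimated counts of 860 and 827 came with assigned lengths of 1062 and 1243 bases, out of 15 annotated transcripts. MEPCE, the capping enzyme (ENSG00000146834, chromosome 7 from 100025945 to 100031749, plus strand), was at 74.8 and 70.6 TPM, a mean of 72.7 ± 3.01 (SD, n = 2). It received 1353 and 1185 estimated counts, more than any other protein-coding member.

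All 8 members had 1 TPM or more in each replicate, as did 15997 genes (27.7% of all genes). Among protein-coding genes, to which 7 of the members belong, this share was 63.7%. Among the 12345 detected protein-coding genes the median level was 21.2 TPM, and 6 of the 7 protein-coding members were above it. LARP7 was at percentile 90.0 of these genes, MEPCE at 84.1, CDK9 at 70.1, CCNT1 at 64.2, CCNT2 at 58.5, HEXIM1 at 52.1 and HEXIM2 at 18.2. HEXIM2 was the member below the median.

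**Figure D1:**
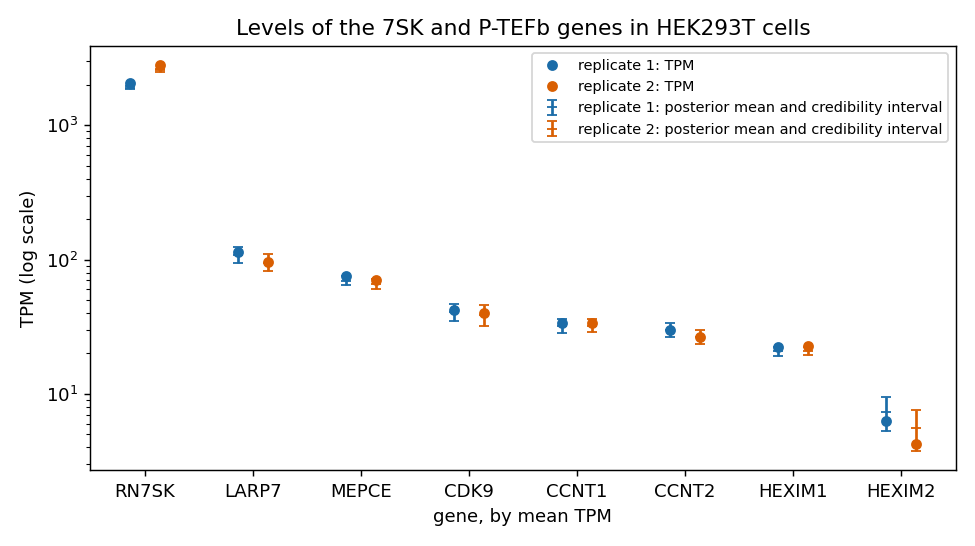
Level of each gene in TPM on a log axis, by replicate, with genes ordered by mean TPM. Circles are TPM, and bars are the credibility interval around the posterior mean. RN7SK, with a mean of 2437 TPM, stands 23.2 times above LARP7, and among neighbours the bars overlap between CDK9 and CCNT1 and between CCNT1 and CCNT2.

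The order of the levels by mean TPM was RN7SK, LARP7, MEPCE, CDK9, CCNT1, CCNT2, HEXIM1 and HEXIM2. Neighbours in this order were called separated where neither the ranges over the replicates nor any of the credibility intervals overlapped, which held for 5 of the 7 neighbouring pairs. CDK9 and CCNT1 were not separated, because the interval of CDK9 in replicate 2 reached down to 31.9 TPM and that of CCNT1 in replicate 1 reached up to 36.2. CCNT1 and CCNT2 were not separated either, with intervals of 28.4 to 36.2 TPM and 26.4 to 33.5 TPM in replicate 1. By the ranges of the replicates alone, all 7 pairs were apart. The place of HEXIM1 depended on the length used: per kilobase of canonical transcript its estimated counts were 218 and 214 in the replicates, above CCNT1 with 157 and 152 and CCNT2 with 91.8 and 91.6. On that scale MEPCE had 479 and 420, LARP7 408 and 392, CDK9 227 and 199 and HEXIM2 34.1 and 23.8, so RN7SK, LARP7 and MEPCE stayed above the other members and HEXIM2 stayed the lowest.

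Genes whose products bind or replace one another were set against each other as ratios of TPM, with no test, since an exact test over 2 replicates cannot reach 0.05. The ratio of CCNT1 to CCNT2 was 1.13 in replicate 1 and 1.28 in replicate 2, a mean of 1.21 ± 0.108 (SD, n = 2). Both cyclins together stood at 1.51 times CDK9 in replicate 1 and 1.52 times in replicate 2. Per length of the canonical transcript in place of the isoform lengths, this ratio was 1.16 ± 0.0882 and that of CCNT1 to CCNT2 was 1.68 ± 0.0356 (SD, n = 2). In both scalings the cyclins together stood above CDK9, and CCNT1 above CCNT2.

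The transcripts of the 2 inhibitors together were 0.684 times CDK9 in replicate 1 and 0.682 times in replicate 2. Per length of the canonical transcript the order turned, with a ratio of 1.16 ± 0.0570 (SD, n = 2), so the side of CDK9 on which the inhibitors lie depends on the length used. HEXIM1 exceeded HEXIM2 3.56-fold in replicate 1 and 5.39-fold in replicate 2 in TPM, and 7.70 ± 1.84-fold (SD, n = 2) per length of the canonical transcript. LARP7 exceeded MEPCE 1.52-fold and 1.37-fold in TPM. Per canonical length LARP7 was below MEPCE, at 0.893 ± 0.0587 (SD, n = 2), and in estimated counts at 0.667 ± 0.0438. The order of LARP7 and MEPCE therefore depended on the length assigned to LARP7. RN7SK stood at 49.3 times CDK9 in replicate 1 and 70.6 times in replicate 2 in TPM, and at 72.3 times on average per canonical length.

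The libraries were compared to learn for which members the difference exceeded the counting error. Rounded counts of 17920 genes with 10 or more counts in total were tested by a two-sided exact binomial test against library sizes scaled by TMM, and p-values were adjusted over all of these genes (Benjamini-Hochberg). It compares these libraries, not conditions. At an adjusted p of at most 0.05 it called 693 genes (3.87%), and 379 (2.11%) were higher in replicate 2. Of the 8 members it called 1, RN7SK, which is 1 of 8 against that background. RN7SK had 411 CPM (counts scaled by library size, here by TMM) in replicate 1 and 566 in replicate 2, which is 1.38-fold higher in replicate 2. The interval of this ratio was 1.32 to 1.43 (exact Clopper-Pearson, 95%, counting error only). The log2 ratio was 0.46 with an adjusted p of 2.88e-54 in this exact test, and the p ranked 11 among the 17920 genes. For comparison, the central 95% of the 4821 genes with at least 1000 counts had log2 ratios from -0.18 to 0.23.

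The 7 protein-coding members did not pass the test. Their log2 ratios of replicate 2 over replicate 1 ran from -0.44 for HEXIM2 to 0.08 for CCNT2, with adjusted p from 0.374 to 0.990 in the exact test. MEPCE had the smallest of these, with a log2 ratio of -0.11 and an exact unadjusted p of 0.0493, and 2383 of all genes had an unadjusted p under 0.05. The intervals of the ratio were 0.820 to 1.05 for CDK9, 0.937 to 1.11 for CCNT1, 0.942 to 1.18 for CCNT2, 0.936 to 1.14 for HEXIM1 and 0.921 to 1.12 for LARP7. For MEPCE it was 0.854 to 0.9998, just below 1, before any adjustment for the number of genes. For HEXIM2, with its low counts, the interval was wider, at 0.458 to 1.16.

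**Figure D2:**
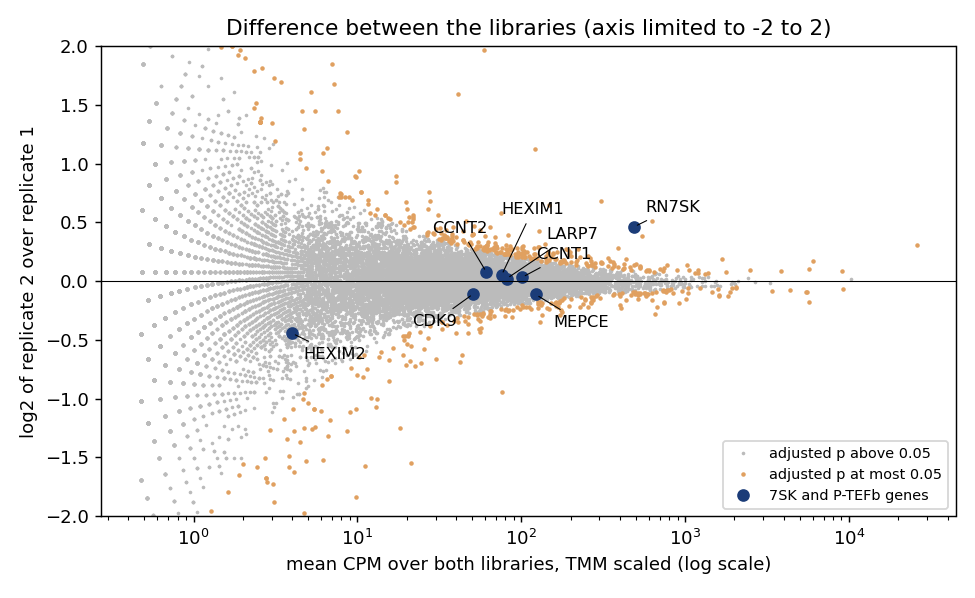
Log2 ratio of replicate 2 over replicate 1 against the mean CPM over both libraries (log axis) for each gene with counts in both, with the 7SK and P-TEFb genes in blue and other genes at an adjusted p of at most 0.05 in orange. RN7SK lies at 0.46, above the cloud of genes of similar level, and the protein-coding members lie within it.

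Other transcripts that carry no poly(A) tail were chosen for comparison after the result for RN7SK was known. Of the 21 replication-dependent histone genes with at least 100 counts, all 21 were higher in replicate 2, with a median log2 ratio of 0.45 and a range of 0.08 to 0.76, and 9 passed the test. Of all 11883 genes with at least 100 counts, 278 passed with a higher value in replicate 2. Histone genes are near-identical paralogs, so single values among them are uncertain. Of 5 snoRNA genes, 4 were higher in replicate 2, with a median of 0.26, and 1 passed the test. The 1 snRNA gene with at least 100 counts had a log2 ratio of 0.33 and did not pass. Of 2 misc_RNA genes other than RN7SK with at least 100 counts, both were higher in replicate 2, at 0.16 and 0.24, and 1 passed. The one that passed was RN7SL2, a gene of the RNA of the signal recognition particle, like RN7SK transcribed by RNA polymerase III. It had a log2 ratio of 0.24 and an adjusted p of 0.000215 in the exact test. RNY1, a Y RNA from the same polymerase, had the opposite sign, with 25.7 counts in replicate 1 and 12 in replicate 2 and a log2 ratio of -1.01, and did not pass. RNY3, another Y RNA, had 3.57 and 10.8 counts with a log2 ratio of 1.43, and did not pass either. The 10925 other protein-coding genes with at least 100 counts had a median of 0.00. What part the selection of poly(A) RNA had in the difference at RN7SK was not tested.

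The copies of 7SK RNA were examined because a read from RN7SK can fit them. Of the 291 annotated copies 275 aligned to RN7SK, all in the same orientation, with a median identity of 86.9% over the aligned part. Most began at the 5′ end, 214 of them within the first 10 bases, and 186 ended between bases 230 and 250. Only 15 reached base 320 or beyond. At a typical base of the first 110 bases 235 copies were aligned, whereas in bases 241 to 331 the median was 18. Where copies were aligned, the median share that kept the base of 7SK RNA was 91.7% in bases 1 to 110, 91.3% in bases 111 to 240 and 94.4% in bases 241 to 331.

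**Figure D3:**
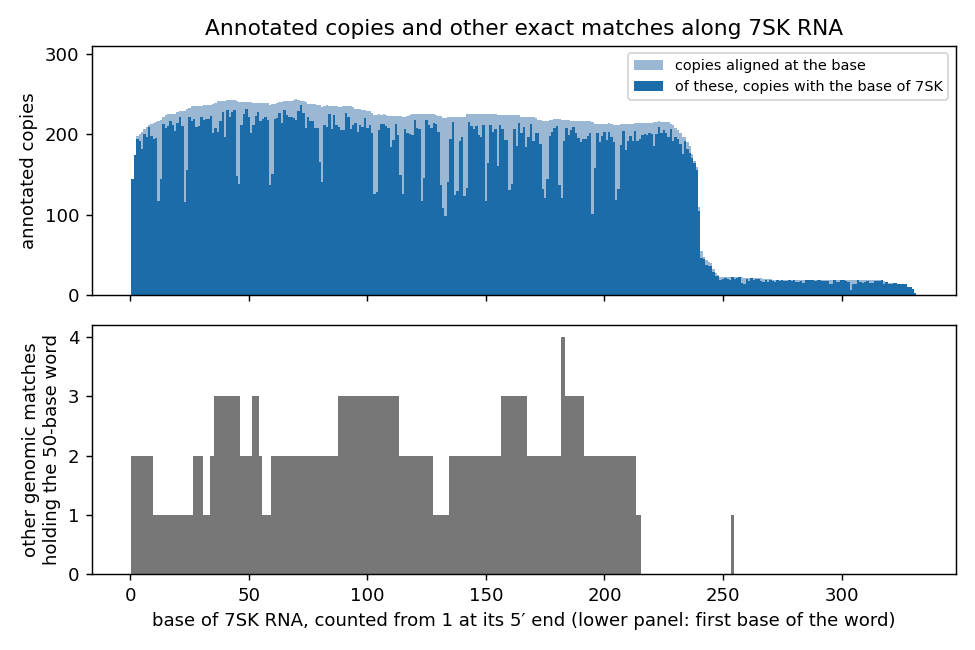
Along the bases of 7SK RNA, the number of annotated copies aligned at each base and of those with the same base (upper panel), and the number of other genomic matches that hold each 50-base word exactly, by its first base (lower panel). Coverage by copies falls from a median of 218 in bases 111 to 240 to 18 in bases 241 to 331, and words that start at bases 216 to 253 occur nowhere else.

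Few counts were placed at the copies. At least 1 summed count was given to 60 of the 291, at least 10 to 4 of them, and 6 had 1 TPM or more in each replicate. All copies together received 97.2 counts in replicate 1 and 79.6 in replicate 2, so RN7SK held 97.8% and 98.6% of the counts of the family, a mean of 98.2% ± 0.565 (SD, n = 2). RN7SK had 271 times the TPM of the highest copy in replicate 1 and 529 times in replicate 2. Before scaling by library size, the summed counts of the copies were lower in replicate 2, and those of RN7SK were higher. The difference at the copies was not tested. Single copies went both ways, since RN7SKP269 had 4 and 9 counts and RN7SKP30 had 8 and 2.

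The copies with the highest mean TPM were RN7SKP80, RN7SKP269, RN7SKP78, RN7SKP30 and RN7SKP9. RN7SKP80 (chromosome 22 from 42961054 to 42961336, minus strand) had 13.4 and 8.94 counts in the replicates, and the posterior SD of these was 2.77 and 2.24. It is 96.3% identical to 7SK RNA over 269 bases and shares 79 of its 50-base words with it. RN7SKP269 (chromosome 1 from 10007376 to 10007694) had 4 and 9 counts and RN7SKP78 (chromosome 10 from 6191586 to 6191903) had 7 and 5, and both share none of these words and had a posterior SD of 0. RN7SKP30 had 8 and 2 counts, and RN7SKP9 had 4.23 and 3.19. RN7SKP71, shown as the copy with the most shared words (96), had 1.84 and 0 counts, and the posterior SD of these was 1.64 and 1.33. The stretches below align to bases 1 to 110 of RN7SK (for RN7SKP80 to bases 2 to 110), and capitals mark the bases that differ from it. The GRCh37 positions are chr22:42961228-42961335 on the minus strand, chr1:10007376-10007485 plus, chr10:6191586-6191695 plus and chr12:112704881-112704990 plus.
RN7SKP80: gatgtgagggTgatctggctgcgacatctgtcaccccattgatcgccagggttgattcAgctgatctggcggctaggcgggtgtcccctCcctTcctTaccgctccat
RN7SKP269: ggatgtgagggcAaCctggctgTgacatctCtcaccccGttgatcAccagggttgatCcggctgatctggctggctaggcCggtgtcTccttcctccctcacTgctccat
RN7SKP78: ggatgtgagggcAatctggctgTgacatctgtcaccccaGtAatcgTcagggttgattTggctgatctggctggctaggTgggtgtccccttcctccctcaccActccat
RN7SKP71: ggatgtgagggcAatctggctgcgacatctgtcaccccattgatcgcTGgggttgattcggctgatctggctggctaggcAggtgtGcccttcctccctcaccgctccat

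In RN7SKP269, RN7SKP78 and RN7SKP71 the substitution G13A lies in the first GATC motif (RN7SK base first, position counted from its 5′ end). RN7SKP78 also carries G42A in the second. RN7SKP269 also carries T15C in the first. RN7SKP80 keeps the 3 motifs in this stretch, in which it lacks a base of RN7SK. Positions of copies relative to other genes were also compared. Of the 60 copies with reads, 44 (73.3%) lay within the span of another gene, and for 39 (65.0%) this gene had a mean TPM of at least 1. Of the 231 copies without reads, 113 (48.9%) lay within another gene and 37 (16.0%) within one at this level. RN7SKP80 lies on the opposite strand of SERHL2, and RN7SKP269, RN7SKP78, RN7SKP30 and RN7SKP9 lie on the same strand as NMNAT1, PFKFB3, CLOCK and UBAC2, all outside their exons. The median identity to 7SK RNA was 89.8% for copies with reads and 85.9% for those without. These are descriptions of overlapping sets of loci, and whether reads at a copy come from the gene around it was not tested.

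**Figure D4:**
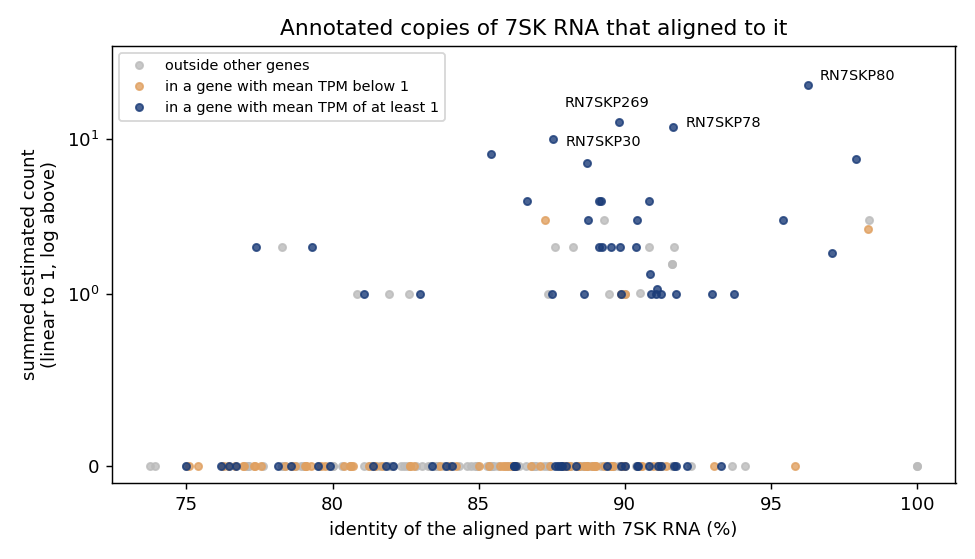
Summed estimated count of each annotated copy that aligned to 7SK RNA (linear up to 1, log above) against its identity with 7SK RNA over the aligned part, coloured by whether it lies in another gene and by the mean TPM of that gene. Copies with reads are spread over identities from below 80% to above 98%, and RN7SKP80 has the most, with 22.3 counts. The 2 copies at 100% identity aligned over 20 bases at most.

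Only 9 annotated copies shared any 50-base word with RN7SK, and 8 of these had reads. They received 27.6 counts in replicate 1 and 14.6 in replicate 2, and no copy shared more than 96 words. The number of such copies is a lower bound for those that a read from RN7SK can fit. Reads that were trimmed shorter, or that differ at a base, were not covered by exact words. Of 287 genomic segments outside the gene that aligned to RN7SK, 252 overlapped an annotated copy and 35 did not. A copy can give more than a single segment, so these are not numbers of copies. One of the latter, in PLCG2 on chromosome 16 from 81995531 to 81995770, is 97.9% identical over 240 bases and shares 41 words. PLCG2, which encodes a phospholipase, had 129 and 128 counts. Whether any of them came from the match to 7SK RNA was not tested.

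Genes that overlap a member in the annotation could share its reads, since the sources used here do not say if strand was used in counting. CCNT1 had no overlapping gene. CDK9 overlaps the microRNA gene MIR3960, which had 0.350 counts in replicate 1 and 0 in replicate 2. CCNT2 overlaps CCNT2-AS1 on the opposite strand, with 17.8 and 20.9 counts. HEXIM1 and HEXIM2 both overlap HEXIM2-AS1 on the opposite strand, with 0 and 1.53 counts. HEXIM2 also overlaps ENSG00000267288 on the opposite strand, with 0 and 3.80 counts. For HEXIM2 66.7% of the 50-base words in its transcripts occur in another gene model, all of them on the opposite strand. For MEPCE the share was 62.8%, with 58.3% in a model on the same strand, ENSG00000289690. LARP7 overlaps MIR302CHG, the host of the miR-302 cluster, on the opposite strand, with 7.69 and 5.09 counts. Within LARP7 introns the microRNA genes MIR302A and MIR302C had 0 counts, MIR302D had 1 in each replicate and MIR367 had 0 and 1. MEPCE overlaps ZCWPW1 at its start on the opposite strand, with 17.0 and 10.0 counts. A further gene model on the same strand, ENSG00000289690, spans MEPCE, and a second model of RN7SK, ENSG00000283293, coincides with it, but neither has values here. The counts at these neighbours were small beside those of the members they overlap, except at HEXIM2. In replicate 2 HEXIM2 had 34.2 counts, beside 1.53 and 3.80 at its neighbours, which had posterior SDs of 2.87 and 2.06. How many reads fitted both a member and a neighbour was not measured.

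The wider pathway was described from lists of genes by role, each by its detected members and its median TPM over both replicates. Of all protein-coding genes 63.7% were detected. The super elongation complex, which carries active P-TEFb to genes, was present with 10 of 11 genes and a median of 20.5 TPM, close to the median of detected protein-coding genes. AFF4, its scaffold, was the highest at 53.4 ± 3.97 TPM, ELL3 the lowest detected at 4.94 ± 0.240 (SD, n = 2), and AFF2 was not detected, at 0.19 and 0.10 TPM. No gene of this list passed the test between the libraries.

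Genes of factors that recruit P-TEFb or release it from 7SK RNA were all detected, 14 of 14, with a median of 159 TPM. TRIM28, which brings the 7SK complex to promoters, was the highest at 612 ± 50.7 TPM, and RBM7, an RNA-binding protein that frees P-TEFb after DNA damage, the lowest at 33.0 ± 1.00 (SD, n = 2). In this list 3 of 14 genes passed the exact test between libraries, against 3.87% of all genes tested. BRD2 and PPM1G were lower in replicate 2, with log2 ratios of -0.09 and -0.18, and SRSF1 was higher, with 0.11. BRD2 had 7294 and 6487 counts, PPM1G 3017 and 2517, and SRSF1 5411 and 5547. At such counts the test calls smaller ratios, and the share called among equally deep genes was not computed. The 3 of 14 can therefore not be read as a trait of the list.

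The pausing factors comprised genes of NELF and DSIF, which are targets of P-TEFb, and POLR2M, and all 7 were detected, with a median of 74.7 TPM. SUPT4H1, the small subunit of DSIF, was the highest at 103 ± 2.76 TPM and POLR2M, whose product binds polymerase II and belongs to neither complex, the lowest at 22.6 ± 0.742 (SD, n = 2). NELFE, the RNA-binding subunit of NELF, passed the test with 85.8 TPM in replicate 1 and 63.6 in replicate 2, and a log2 ratio of counts of -0.27. The elongation partners of the PAF complex and others were all detected, 10 of 10, with a median of 62.8 TPM. LEO1, a subunit of the PAF complex, was the lowest at 20.9 ± 0.940 TPM (SD, n = 2).

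The hnRNP proteins take up 7SK RNA when P-TEFb leaves it. Their genes formed the list with the highest median, 952 TPM, with 6 of 6 detected. HNRNPA1 was the highest at 1577 ± 38.3 TPM and SYNCRIP the lowest at 171 ± 4.05 (SD, n = 2). HNRNPA2B1, with 13283 and 12086 counts, passed the test between the libraries with a log2 ratio of -0.06. The other kinases of the polymerase II C-terminal domain and their cyclins were all detected, 9 of 9, with a median of 61.4 TPM, from CDK19 of the Mediator module at 13.2 ± 0.283 to CCNH of TFIIH at 77.1 ± 5.16 TPM (SD, n = 2). CDK9 at 40.9 TPM was within their range.

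**Figure D5:**
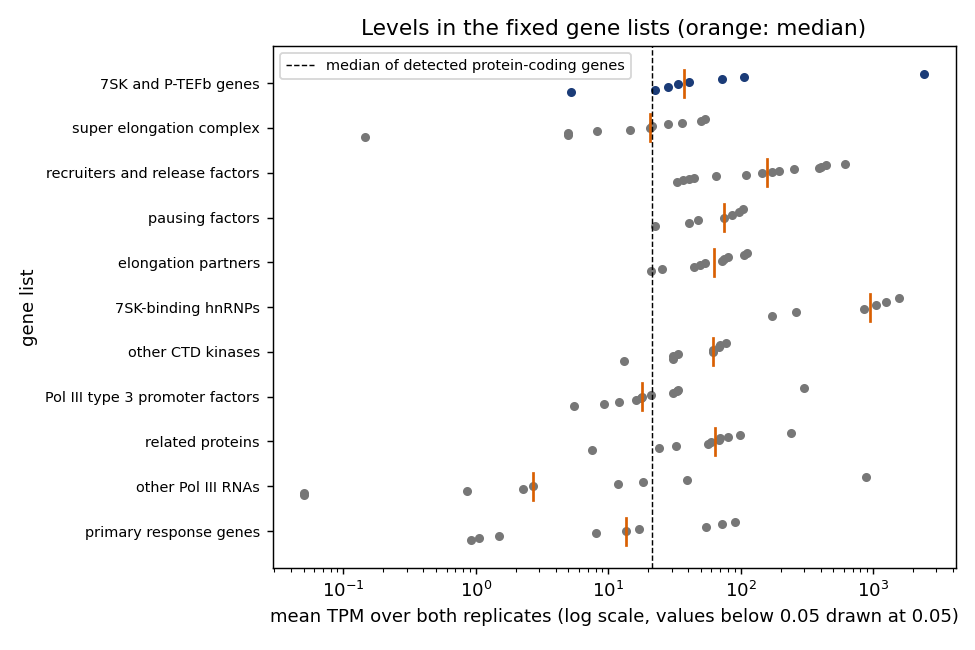
Mean TPM over both replicates (log axis) of each gene in the 7SK and P-TEFb set and in the pathway lists, without the kidney and neuronal markers, with the median of each list in orange and the median of detected protein-coding genes, 21.2 TPM, as a dashed line. Among the lists drawn, the hnRNP list has the highest median, 952 TPM. The list of other RNAs made by polymerase III has the lowest, 2.69 TPM over the 9 that were analysed.

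SNAPc and its partners, which act on the type of promoter used by RN7SK, were listed together with SSB. All of these were detected, 11 of 11, with a median of 18.0 TPM. The lowest was SNAPC1, a SNAPc subunit, at 5.53 ± 0.467 TPM, and the highest was SSB at 299 ± 5.82 (SD, n = 2), the La protein, which binds the 3′ ends of new polymerase III transcripts. Proteins related to the members, the other LARP proteins, BCDIN3D and further transcription cyclins, were present with 10 of 10 genes and a median of 64.1 TPM. LARP1 was the highest at 239 ± 10.8 TPM, above LARP7, and BCDIN3D, a methyltransferase related to MEPCE, was the lowest at 7.47 ± 0.0354 (SD, n = 2). LARP4 passed the test with a log2 ratio of 0.20.

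In these libraries of poly(A) RNA, the other RNAs made by polymerase III that were analysed were lower than 7SK RNA in TPM. All except RN7SL2 were far lower, and RN7SL2 was at 820 TPM in replicate 1 and 954 in replicate 2. How much of each RNA passed the selection was not measured. Of the 9 other polymerase III RNAs that were analysed 5 were detected. VTRNA1-1, a vault RNA, was the lowest of these, at 2.64 and 2.74 TPM from 1 count in each library. RNY4 and VTRNA1-2 had 0 counts, which allows up to 3 counts, or 0.283 CPM in replicate 1 and 0.297 in replicate 2. RNY5 had 0 and 1 counts and RNU6ATAC 1 and 0. These limits cover counting error only. RN7SL1, RMRP and RPPH1 were not analysed here, because their symbols were not matched to a single gene, so their levels are not covered.

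Primary response genes, whose release from pausing needs P-TEFb, were detected with 7 of 9 genes and a median of 13.6 TPM. MCL1, a survival factor of the BCL2 family, was the highest at 90.7 ± 0.0495 TPM (SD, n = 2) and FOSB the lowest detected, at 1.56 TPM in replicate 1 and 1.43 in replicate 2. FOS was at 1.11 and 0.720 TPM and EGR1 at 1.26 and 0.860, so neither reached 1 in both. None of the 9 passed the test between the libraries. HEXIM1 at 22.6 TPM and CDK9 at 40.9 TPM were above the median of these genes.

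The labelled cell type was checked against markers. Of 8 kidney genes 3 were detected, the developmental regulators WT1 at 10.2 ± 0.346 and PAX2 at 3.41 ± 1.32 TPM and the receptor LRP2 at 9.12 ± 1.19 (SD, n = 2). Among the kidney genes that were not detected, UMOD, AQP2 and SLC34A1 were at 0 in both replicates, and SLC12A1 and NPHS1 were at 0.220 TPM or below. Of 4 neuronal genes 3 were detected, with UCHL1 at 253 ± 3.36, NEFM at 10.5 ± 0.820 and TUBB3 at 6.58 ± 0.134 TPM (SD, n = 2), and STMN2 was at 0. NEFL was not analysed here.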

How the data were processed

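Poly(A) RNA of HEK293T cells was sequenced in 2 libraries. Per the labels and the submitters' processing notes, the authors trimmed reads with Trimmomatic 0.36, aligned them with STAR 2.6.1c to hg19/GRCh37.p13 and quantified genes with RSEM 1.3.1. The methods name featureCounts, whereas the deposited columns are those of RSEM. Estimated counts as deposited share an ambiguous read among the genes it fits. TPM and FPKM, both deposited by the authors, are corrected for the length of the isoforms. The posterior SD and the bounds of the credibility interval are scores deposited by the authors, and the tables do not state the level of the interval. The authors also deposited a table made from the reads of both libraries together.

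Estimated counts summed to 10593491 and 10104118, which limits the precision of low genes. A PCR read is not an independent molecule, so intervals and limits cover counting error only. Symbols, types, coordinates and canonical transcripts came from GENCODE release 44 mapped to GRCh37, with 55501 of 57736 identifiers (96.1%) matched. Both samples formed 1 group, and there was no test between conditions. Counts were rounded, scaled by TMM (edgeR 4.0.16, R 4.3.3) and compared between the libraries by an exact two-sided binomial test (scipy 1.17.1) for genes with 10 or more counts in total, with p-values adjusted after Benjamini-Hochberg. Log2 ratios used 0.5 added counts. The test was also run on counts simulated with counting error alone (Poisson), which is what it assumes. That run cannot show how the test behaves where libraries differ in other ways.

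Copies were genes named RN7SKP and a number. They and the genome were aligned to RN7SK with blastn 2.17.0, and 50-base words were matched exactly on both strands. Detected genes had 1 TPM or more in each replicate. The members and lists were chosen with earlier results of these data known. Named were all members, the 5 copies with the highest mean TPM, genes overlapping a member, and in each list the highest, the lowest detected and the undetected genes, except for an item that is not reported here. RN7SKP71, PLCG2, genes around the named copies, and list genes that passed the test were named after their values were seen. Likeness of pattern to other genes was not computed, since there were 2 samples of 1 group. Alternatives were posterior mean TPM, FPKM, counts, the pooled table, other thresholds and library sizes, and leaving out each replicate. Ratios per canonical transcript length, the order by ranges alone and the RNA classes were added after the data were seen.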

Additional observations from a re-analysis of the deposited data

How the results depend on the processing

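No paired analysis was possible because the labels give 1 group only. Of 97 alternative values, 21 moved by more than the spread between replicates (counts: over 1.5 times) and 4 crossed 1. The others say little of stability, since with 2 replicates a mean without either of them stays within its SD, and FPKM ratios equal TPM ratios apart from rounding. Lengths mattered most. In estimated counts without length correction, the ratio of CCNT1 to CCNT2 was 1.65, of both cyclins to CDK9 3.19, of HEXIM1 to HEXIM2 19.4, of both HEXIM genes to CDK9 1.57 (above 1 in place of below), of LARP7 to MEPCE 0.667 (below 1 in place of above) and of RN7SK to CDK9 9.63. Per canonical transcript length, chosen after seeing the data, they were 1.68, 1.16, 7.70, 1.16 (above 1), 0.893 (below 1) and 72.3. With the posterior mean TPM both cyclins stood at 1.52 times CDK9 and both HEXIM genes at 0.688 times, and the list medians were 22.3 TPM for the super elongation complex, 879 for the hnRNP proteins, 64.8 for related proteins and 6.17 for other polymerase III RNAs.

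RN7SK was the member called under RLE and total-count library sizes and under both other count minimums. Among genes with whole counts in both libraries 0 of 3 members were called by the exact binomial test (1 had an unadjusted p under 0.05), beside 70 of 8675 genes, and RN7SK was not among those tested. Copies with reads numbered 6 by a TPM of 1 or more in each replicate, 4 with 10 counts or more, and 38 to 44 when either replicate was left out. RN7SK held 95.7% of the family counts when the 2 other genes that share words with it were added, which adds all counts of PLCG2. All 8 members stayed detected at 0.1 TPM and with 10 counts, and 7 at 5 TPM, which HEXIM2 did not reach in replicate 2. Depth limits HEXIM2, single copies and the RNAs with few counts.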
